A study of Homo sapiens with 6 samples.

Results

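SERPIND1, LOXL2 and PLA2G4A are 3 of the 50 genes on the arrays to which a RefSeq reference gave a symbol (the named genes). They were selected on the contrast described here, for lower values after clusterin silencing. The values that chose them were therefore the differences between siCLU and siSCR on these same 6 arrays, and those differences are given as descriptions, with no test. Each gene had 1 named probe, printed as 16 separate spots per array, so the 3 genes account for 288 of the 4770 spot measurements of named genes. Probes without a RefSeq identifier were not matched to genes, so further probes of these genes were not looked for. Identifiers were A_23_P6335 (NM_000185) for SERPIND1, A_23_P111995 (NM_002318) for LOXL2 and A_23_P11685 (NM_024420) for PLA2G4A.

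RNA came from PC3 cells, an established human prostate cancer line, transiently transfected either with siRNA against clusterin mRNA (siCLU, 3 biological replicates) or with a scrambled siRNA (siSCR, 3 biological replicates). Cy3-labelled RNA made from 100 ng of total RNA was hybridised to 1-colour Agilent arrays, 1 sample per array, over 3 slides. Only slide 2 carried both groups, with siSCR replicates 2 and 3 beside siCLU replicate 3. The first control array had slide 1 to itself, and the remaining pair of siCLU arrays shared slide 3. None of the 7 PC3 markers and none of the 9 markers of other cell types looked for was among the named genes, and the clusterin probe was not analysed here, so neither the cell line nor the knockdown was checked on these arrays. As in any bulk sample, fewer cells expressing a gene and less RNA per cell cannot be told apart.

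SERPIND1 encodes heparin cofactor II, a serpin made mainly by the liver and released into plasma, where it inactivates thrombin once heparin or dermatan sulfate binds it. LOXL2 encodes a secreted copper-dependent amine oxidase that oxidises lysine residues so that collagen and elastin chains become crosslinked in the extracellular matrix. PLA2G4A encodes cytosolic phospholipase A2 alpha, a calcium-activated enzyme that cleaves arachidonic acid from membrane phospholipids and so feeds the synthesis of prostaglandins and leukotrienes. The first pair of products act outside the cell, whereas the phospholipase acts inside it and its lipid products leave.

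After quantile normalization the levels of SERPIND1, PLA2G4A and LOXL2 followed the same order over the 6 arrays, which they did not without normalization. The LOXL2 upstream sequence is not reported here, and the sequences just upstream of the SERPIND1 and PLA2G4A start sites are shown. Each is the 250 bases before the RefSeq start in GRCh38.p14, on the plus strand, at chr22:20773863-20774112 for SERPIND1 and chr1:186828699-186828948 for PLA2G4A. Capitals mark a match to any of 5 short promoter motifs searched on both strands.
SERPIND1: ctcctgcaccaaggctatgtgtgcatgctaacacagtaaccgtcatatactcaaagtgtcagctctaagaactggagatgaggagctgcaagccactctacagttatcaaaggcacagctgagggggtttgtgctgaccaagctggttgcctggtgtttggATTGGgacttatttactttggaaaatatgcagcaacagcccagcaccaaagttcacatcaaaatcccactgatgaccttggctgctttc
PLA2G4A: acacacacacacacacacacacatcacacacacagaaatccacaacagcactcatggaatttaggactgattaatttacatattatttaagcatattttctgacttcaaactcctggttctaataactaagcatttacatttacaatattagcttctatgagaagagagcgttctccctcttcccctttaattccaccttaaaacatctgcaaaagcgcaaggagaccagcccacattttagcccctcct
The motifs were the TATA box, spelled TATAAA, the CCAAT box, spelled by its name, the GC box, spelled GGGCGG, the AP-1 site, spelled TGACTCA, and the E-box, spelled CACGTG. SERPIND1 held 1 match, a CCAAT box on the minus strand, and PLA2G4A held 0. Read on the plus strand, the matched letters begin 89 bases before the SERPIND1 start. Over the 250 bases before 35116 RefSeq starts, 32.0% held a CCAAT box, 42.6% a GC box, 10.7% a TATA box, 6.34% an E-box and 4.20% an AP-1 site, and the CCAAT match in SERPIND1 overlapped no other motif searched. G and C made up 47.6% of the SERPIND1 window and 38.8% of the PLA2G4A window, against a median of 58.0% over all starts, with 1 and 2 CpG dinucleotides against a median of 11. A match, or the lack of one, describes these letters only.

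In PC3 cells the SERPIND1 probe was lower on every siCLU array than on any siSCR array. The processed signal, a scanner intensity that the Agilent software had corrected for background, had a median over the spots of 929, 574 and 1039 on the siSCR arrays (replicates 1, 2 and 3, the order kept from here on), and of 187, 408 and 288 on the siCLU arrays. The groups did not overlap, siCLU replicate 1 was the lowest array and siSCR replicate 2 was the lowest control. After quantile normalization, which gives all arrays the same distribution of values, the log2 levels were 10.19, 9.32 and 9.93 in siSCR and 7.12, 8.60 and 8.27 in siCLU. The mean was 9.81 ± 0.45 (SD, n = 3) in siSCR and 7.996 ± 0.78 (SD, n = 3) in siCLU, a log2 difference of -1.82 (limma SE 0.44). SERPIND1 RNA in siCLU was thus 28.4% of its siSCR level, a 3.52-fold lower geometric mean. The highest siCLU array lay 0.72 log2 units under the lowest siSCR array, which is close to the spread within a group (pooled SD 0.63).

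PLA2G4A, the arachidonic acid-releasing enzyme, was also lower on every siCLU array. Its median processed signal was 285, 305 and 401 in siSCR and 188, 225 and 170 in siCLU. No siCLU array reached a control. Quantile normalization brought the siSCR arrays closer together (SD 0.26 before, 0.066 after) and the siCLU arrays farther apart (SD 0.20 before, 0.32 after), with a pooled SD of 0.23 on both scales. The quantile-normalized log2 levels were 8.54, 8.41 and 8.49 in siSCR and 7.11, 7.75 and 7.53 in siCLU. The mean was 8.48 ± 0.066 (SD, n = 3) in siSCR and 7.46 ± 0.32 (SD, n = 3) in siCLU, a difference of -1.02 log2 units (limma SE 0.20). The siCLU level was 49.4% of the siSCR level, or 2.03-fold lower. The gap between the groups was 0.66 log2 units, larger than the pooled SD of 0.23.

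LOXL2, the matrix crosslinking enzyme, had the smallest difference of the 3 genes, and its groups separated only after quantile normalization. Its median processed signal was 19902, 15123 and 20204 in siSCR and 16819, 18654 and 14084 in siCLU. These values overlapped, since siCLU replicates 1 and 2 exceeded siSCR replicate 2. Quantile normalization gave log2 levels of 14.44, 14.10 and 14.37 in siSCR and of 13.60, 14.02 and 13.95 in siCLU. On that scale the mean was 14.30 ± 0.18 (SD, n = 3) in siSCR and 13.86 ± 0.22 (SD, n = 3) in siCLU, a difference of -0.44 (limma SE 0.19). The siCLU level was 73.5% of the siSCR level, a 1.36-fold difference that lies under the 1.5-fold limit of the study's methods. The groups were 0.078 log2 units apart at their nearest arrays, less than the pooled SD of 0.20.

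**Figure D1:**
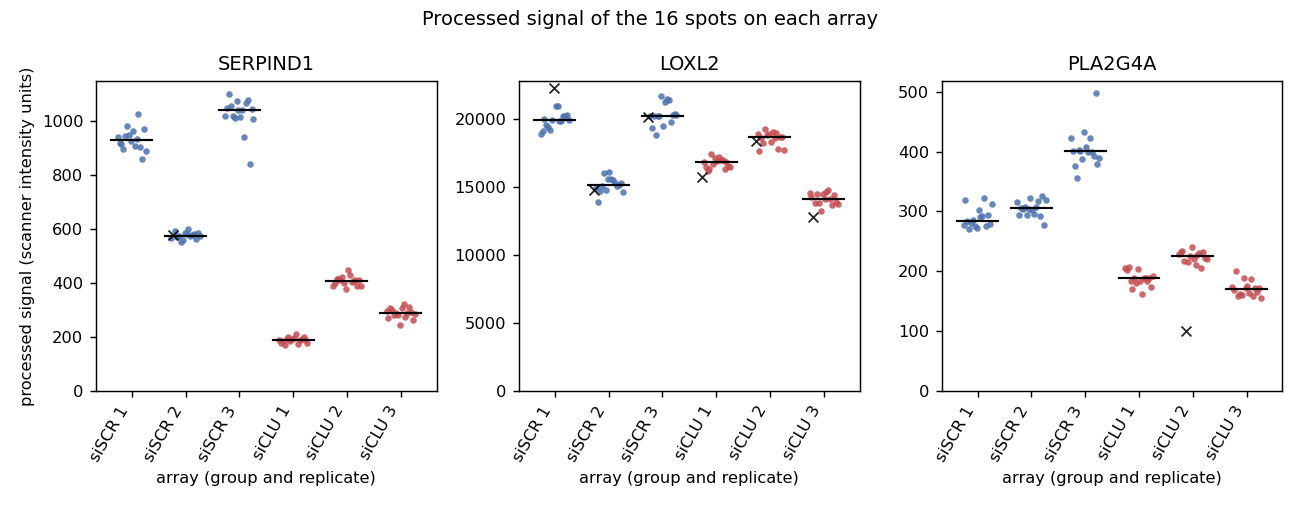
Processed signal in scanner intensity units (linear axis from 0, a separate scale per gene) of the 16 spots of each gene on each array, with siSCR in blue, siCLU in red, the median of the spots used as a black line and spots the software marked as outliers as black crosses. The SERPIND1 and PLA2G4A medians of siCLU lie under those of every siSCR array, whereas the LOXL2 medians of siCLU (16819, 18654 and 14084) and siSCR (19902, 15123 and 20204) overlap.

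Lower LOXL2 in siCLU without overlap was therefore seen under some scalings and not under others. Without any normalization between arrays its difference was -0.16, siCLU and siSCR overlapped, and siCLU was the lower in 7 of 9 array pairs. With a shift of each array to a common 75th percentile the difference was -0.41 and the groups still overlapped, with siCLU lower in 8 of 9 pairs. In the authors' own log2 table the difference was -0.45 without overlap. SERPIND1 and PLA2G4A did not overlap under any of these scalings, and without normalization their differences were -1.55 and -0.77. The median difference over all 130673 probes kept was 0.12 after quantile normalization, 0.078 after the 75th percentile shift and 0.33 without normalization, so the unnormalized siCLU values were on the whole the brighter ones.

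**Figure D2:**
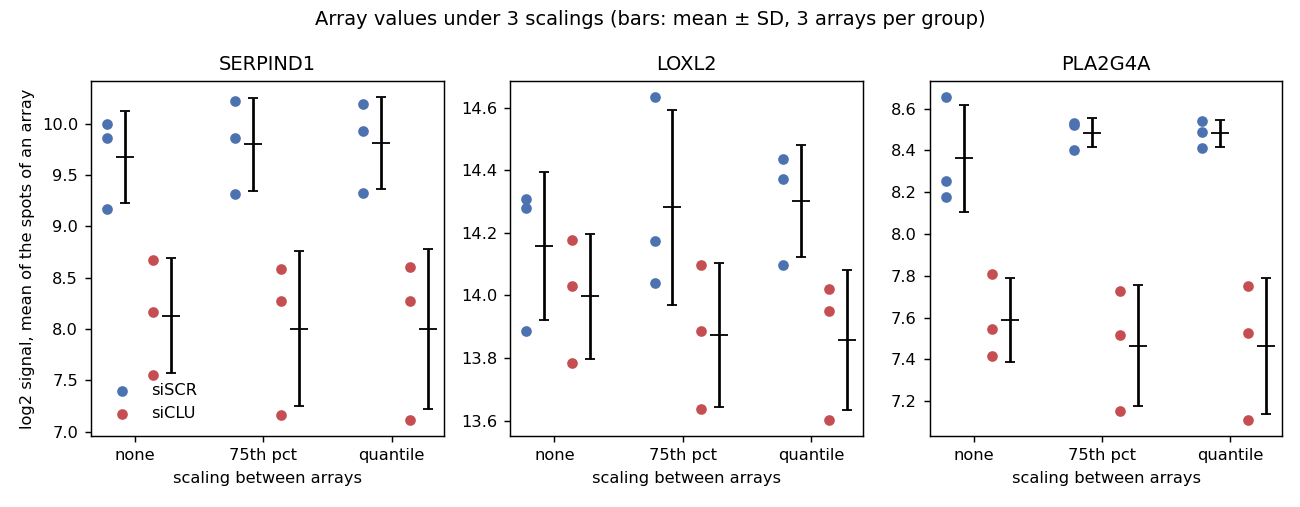
Log2 signal of each array (mean of the spots used, a separate scale per gene) with no normalization, after a shift to a common 75th percentile and after quantile normalization, as points for siSCR (blue) and siCLU (red), with the mean ± SD of 3 arrays in black. SERPIND1 and PLA2G4A keep a gap between groups in all 3, and LOXL2 shows one (0.078 log2 units) only after quantile normalization.

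The spots of a gene repeat 1 hybridised sample and measure the precision on an array, not the replicate error. All 288 spots were well above background by the software's flag, none was saturated, and the local background lay between 23 and 40 intensity units. The spot SD on an array ranged from 0.029 to 0.10 log2 units for SERPIND1, from 0.029 to 0.061 for LOXL2 and from 0.059 to 0.11 for PLA2G4A. Arrays of the same group differed by more than that. The pooled SD between arrays was 8.34 times the pooled spot SD for SERPIND1, 4.32 times for LOXL2 and 2.66 times for PLA2G4A. With 3 arrays in each group, the number of arrays limits the precision of the differences.

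Spot by spot, none of the 48 siCLU spots used for SERPIND1 and none of the 47 used for PLA2G4A exceeded the lowest siSCR spot after quantile normalization. For LOXL2, 18 of 45 siCLU spots did. At each of the 16 positions on the array the siCLU mean was the lower for all 3 genes. The differences between positions ran from -1.93 to -1.65 for SERPIND1, from -0.51 to -0.39 for LOXL2 and from -1.47 to -0.82 for PLA2G4A.

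The PLA2G4A position at -1.47 included a spot on siCLU replicate 2 with a signal of 99.4, which the software marked as an outlier and which was left out of the array means. SERPIND1 had 1 such spot, on siSCR replicate 2. LOXL2 had 6, 1 on each array, and 4 of these were the same position (row 57, column 145). Part of siSCR replicate 3 had raised uncorrected signals in its dimmer spots, with 23 of 200 array tiles bright. It held 1 SERPIND1 spot, 3 LOXL2 spots and 0 PLA2G4A spots, and without the spots in those tiles the differences were -1.81, -0.45 and -1.02.

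**Figure D3:**
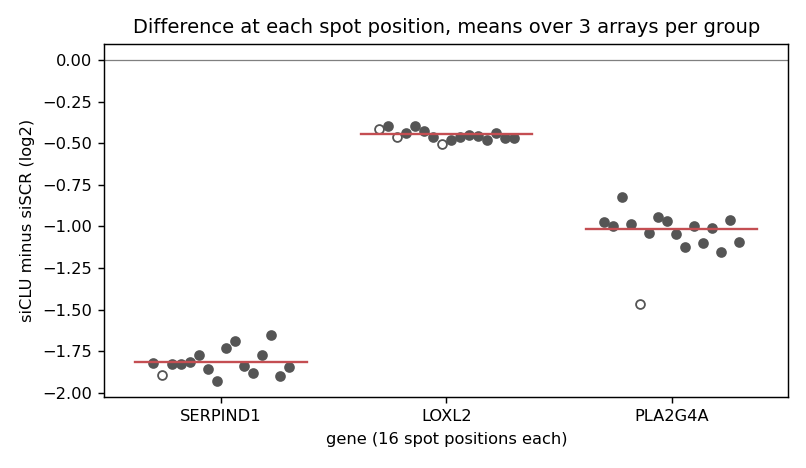
Difference in mean log2 signal, siCLU minus siSCR, at each of the 16 spot positions of each gene (points, means over 3 arrays per group, outlier spots included), with open points where the software marked a spot as an outlier on at least 1 array and the reported difference as a red line. All points lie below 0, from -1.93 to -1.65 for SERPIND1, from -0.51 to -0.39 for LOXL2 and from -1.47 to -0.82 for PLA2G4A.

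Within slide 2, the slide that held both groups, siCLU replicate 3 was lower than siSCR replicates 2 and 3 for each gene. The SERPIND1 differences were -1.05 and -1.66, those of PLA2G4A were -0.89 and -0.96, and those of LOXL2 were -0.15 and -0.42. The mean over both pairs was -1.35 for SERPIND1, -0.92 for PLA2G4A and -0.28 for LOXL2. The arrays of slides 1 and 3, where slide and group cannot be told apart, differed by -2.33 for SERPIND1, -0.63 for LOXL2 and -1.11 for PLA2G4A, farther apart than within slide 2 for all 3 genes after quantile normalization. Without normalization the slide 2 differences were -1.42, -0.31 and -1.04 and those of slides 1 and 3 were -1.75, -0.17 and -0.50, in the same order of genes. With slide as a fixed block only slide 2 informs the difference, and the estimates were the same as those within it.

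The 3 genes placed the 6 arrays in the same order after quantile normalization. From high to low this was siSCR replicate 1, siSCR replicate 3, siSCR replicate 2, siCLU replicate 2, siCLU replicate 3 and siCLU replicate 1. Of the 130673 probes kept, 1868 (1.43%) had this order, but that siSCR lies above siCLU in it follows from how the genes were selected. The order within siSCR and within siCLU, which the selection did not use, was shared by 7785 probes (5.96%) and by 6 of the 43 named genes kept, the 3 members included. As a measure of likeness, Pearson's r over the 6 arrays was 0.99 between SERPIND1 and LOXL2, 0.98 between SERPIND1 and PLA2G4A and 0.93 between LOXL2 and PLA2G4A. These values contain the difference between groups by which the genes were chosen. Taken as deviations from the group means, r was 0.98, 0.94 and 0.87 in the same order, over arrays that all 3 genes share. A deviation r above 0.8 was also found with 11.8% of all kept probes for SERPIND1, 10.7% for LOXL2 and 10.4% for PLA2G4A.

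The 2 arrays at the ends of this order were also at the ends in brightness. Their processed signals had 75th percentiles of 405 (siSCR replicate 1, the dimmest) and 682 (siCLU replicate 1, the brightest), and those of the other 4 ranged from 467 to 569. For each gene, siCLU replicate 1 was the array that quantile normalization lowered the most. In the unnormalized values the genes did not share an order. There siCLU replicate 1 was the lowest array for SERPIND1 alone, and siSCR replicate 3 was the highest for all 3 genes. After the 75th percentile shift LOXL2 departed from the shared order, with siCLU replicate 2 (14.10) above siSCR replicate 2 (14.04). The part of array brightness in the shared order was not tested.

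**Figure D4:**
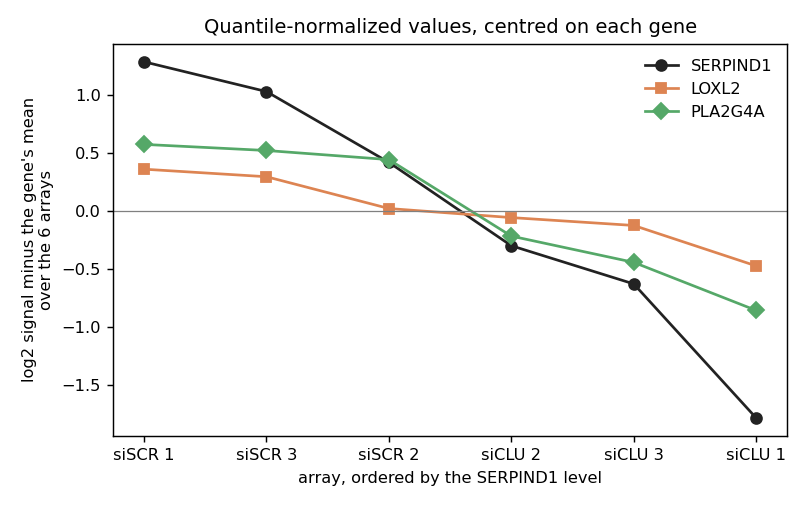
Quantile-normalized log2 signal of each gene minus that gene's mean over the 6 arrays, with arrays on the horizontal axis from the highest to the lowest SERPIND1 level. The lines of SERPIND1 (black circles), LOXL2 (orange squares) and PLA2G4A (green diamonds) all descend from siSCR replicate 1 to siCLU replicate 1 without a reversal.

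Apart from the members themselves, the named genes among the 3 with the highest r to a member were MOCOS, LOX and TCF7, and these r values too contain the difference between groups. MOCOS, which encodes the molybdenum cofactor sulfurase, had an r of 0.93 with SERPIND1 and of 0.98 with PLA2G4A, and by deviations from the group means an r of 0.70 and 0.87. LOX, the founding lysyl oxidase, had an r of 0.96 with PLA2G4A and a deviation r of 0.80. TCF7, a transcription factor of the Wnt pathway, had an r of 0.90 with LOXL2 and a deviation r of 0.95. The likeness by deviations gave another order of genes. ITGB3BP, which encodes a centromere protein and was singled out after its values were seen, had a deviation r of 0.99 with SERPIND1, 0.97 with LOXL2 and 0.90 with PLA2G4A, whereas its r over the 6 arrays was 0.24, 0.35 and 0.060.

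The pathway genes around the members were almost all outside the named set. Of 34 genes of coagulation and the serpin family 0 were named on these arrays, of 36 genes of phospholipase A2 and eicosanoid metabolism 0 were named, and of 34 genes of the lysyl oxidase family and collagen matrix only LOX was. COL13A1, a collagen gene left off that list, was also named. It was higher in siCLU by 0.39 log2 units (limma SE 0.18) after quantile normalization, and its groups overlapped. The median processed signal of LOX over its 16 spots was 46.6, 55.01 and 43.3 in siSCR and 11.8, 21.3 and 18.7 in siCLU. All siCLU medians of LOX were lower, but its probe was dim, with only 1 of 16 spots well above background on siSCR replicate 3 and 6 of 16 on siCLU replicate 1. On siSCR replicate 3 the LOX spots ranged from 25.5 to 612, and 4 of them were marked as outliers. The quantile-normalized difference of LOX was -1.58 (limma SE 0.37), and it did not pass the threshold (adjusted p = 0.083 from limma with Benjamini-Hochberg adjustment over all kept probes).

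Over all probes, limma called 2112 of 130673 at an adjusted p of 0.05 and a fold change of 1.5, of which 867 (0.663%) were lower in siCLU, and 0 of the 3 genes were among them. Restricted to 77952 probes with a clear signal on each of the 6 arrays, it called 4314 lower (5.53%), among them SERPIND1 and PLA2G4A and not LOXL2. Every siCLU array lay below every siSCR array for 17724 of 130673 probes (13.6%), and for all 3 genes. Since the genes were picked from this same contrast, nothing is read from these counts. Of the 43 named genes kept, SERPIND1 had the lowest difference, PLA2G4A ranked 5 and LOXL2 ranked 8 from the lowest, and 8 were lower without overlap. The median difference over the named genes was 0.10, close to the 0.12 of all kept probes.

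The differences of the 3 genes stayed below 0 under each of the 19 alternative settings tried. They ranged from -2.12 to -1.35 for SERPIND1, from -0.55 to -0.16 for LOXL2 and from -1.16 to -0.77 for PLA2G4A. The replicate that moved them most toward 0 was siCLU replicate 1, without which they were -1.38, -0.32 and -0.84 for SERPIND1, LOXL2 and PLA2G4A.

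**Figure D5:**
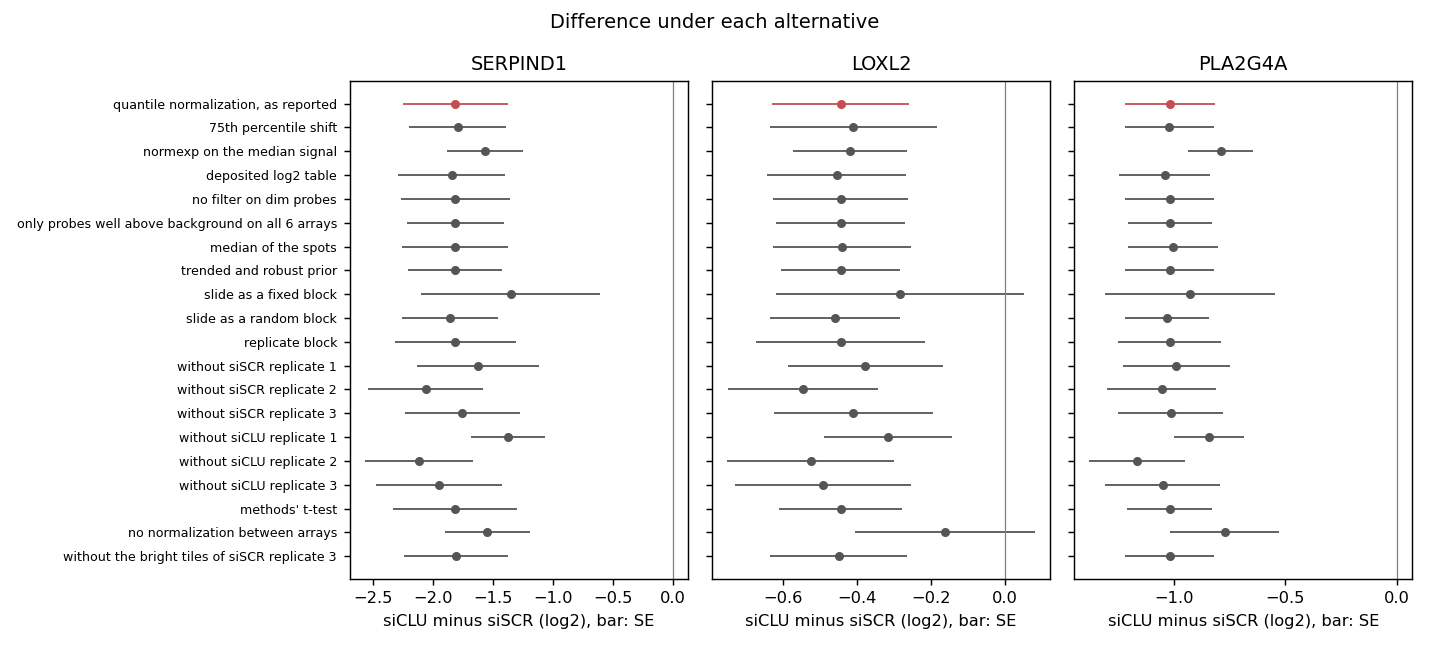
Log2 difference, siCLU minus siSCR, of each gene under quantile normalization (red) and each of the 19 alternatives (grey), with bars for the SE of that fit and a separate scale per gene. All points lie below 0, and the LOXL2 bars reach past 0 with slide as a fixed block (-0.28) and with no normalization between arrays (-0.16).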

How the data were processed

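Groups and replicate numbers were taken from the sample labels and slides from the deposited array output. Per the file headers the arrays were scanned at 3 μm and read with Feature Extraction 10.5.1.1 (the submitters' processing notes name 10.10), and the authors deposited for each spot a processed signal, an intensity already corrected for background, not normalized between arrays. A second set of values that the authors deposited is on the log2 scale after quantile normalization, per the methods. All 50 accessions were matched without versions to a RefSeq table of GRCh38.p14, used for names only. The members and the gene lists were chosen with earlier results of these data known.

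The log2 of the deposited intensity was quantile normalized between arrays, using 176032 non-control spots per array. Outlier spots were then dropped and each probe took the mean of its other spots. Probes with a mean on every array and a signal flagged as well above background on 3 or more arrays were kept. The comparison of siCLU with siSCR used limma 3.58.1 in R 4.3.3, with no block, at the limits of the study's methods (adjusted p of 0.05, 1.5-fold). The code was tested on simulated data. Alternatives were a 75th percentile shift, normexp (offset 50) on the median spot signal (the planned mean signal was not used here), the deposited table, no filter or a filter over all 6 arrays, the median of spots, a trended robust prior, slide as a fixed or random block, a replicate block, each array left out, and the methods' t-test. Omitting normalization or the bright tiles of siSCR replicate 3 was added after seeing the data. A tile was bright when the 10th percentile of its uncorrected spot signals was over 1.5 times the median tile of that array. Of the 50 genes with a symbol (the named genes), the rule for those given with values took the members, the 3 most correlated with each, and the measured genes of the lists. ITGB3BP and COL13A1 were given outside this rule. Figures were drawn with matplotlib 3.10.9. Between 73.5% and 77.2% of spots were well above background on 5 arrays and 45.9% on siSCR replicate 3, where the software's additive error was 28.8 against 2.03 to 2.65. Probe sequences and the clusterin probe were not analysed here.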

Additional observations from a re-analysis of the deposited data

How the results depend on the processing

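The differences of SERPIND1, LOXL2 and PLA2G4A kept their direction under all 19 alternatives. They moved by less than the SD between replicates in all but 1 setting each for LOXL2 and PLA2G4A, which was no normalization between arrays (-0.16 and -0.77). Leaving out 1 replicate at a time gave -2.12 to -1.38 for SERPIND1, -0.55 to -0.32 for LOXL2 and -1.16 to -0.84 for PLA2G4A.

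The number of probes called over the array depended far more on the setting, and the cause was not tested. Against 2112 probes (1245 higher, 867 lower), limma called 5322 after the 75th percentile shift, 9304 after normexp, 8167 (3853 higher, 4314 lower) among probes with a clear signal on every array, 8908 with a trended robust prior, 4480 when slide was a random block, and 3783 (2699 higher, 1084 lower) without normalization. SERPIND1 and PLA2G4A were among the calls after normexp, with the filter over all 6 arrays and with the trended prior. PLA2G4A alone was called after the 75th percentile shift and with the random block, and LOXL2 in none. The genes were picked from this same contrast, so nothing is read from their calls. When dim probes were not filtered limma called 0 (22733 at an unadjusted p under 0.05) and with slide as a fixed block 0 (6969 unadjusted). The methods' t-test called 2 after Benjamini-Hochberg adjustment (13449 unadjusted). Leaving out 1 replicate at a time gave 0 to 4238 calls, with 4238 without siSCR replicate 3 and 0 without any of the others (16525 to 21888 unadjusted).

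With a replicate block limma called 0 probes (20031 at an unadjusted p under 0.05), and the differences of the 3 genes were -1.82, -0.44 and -1.02, as without it. For arrays with the same replicate number, the deviations from the group means had correlations of -0.043, -0.24 and 0.16 over 77952 probes. With 3 arrays per group and slides shared unevenly, these values cannot show whether the numbers pair the arrays. Replicates were 3 per group, slide and group were partly tied, and the label of LOXL2 as lowered rests on the scaling between arrays.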
